A study of Mus musculus with 26 samples.

Results

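Expression of 48 imprinted genes was examined across the 10 RNA-seq libraries of the series, out of 52454 gene symbols in the deposited expression table. The genes were taken by name, each had 1 row in the table, and they were arranged into 23 imprinted clusters or single loci. By the parental allele that is known to be expressed, 27 are paternally expressed genes, 19 are maternally expressed genes, and *Gnas* and *Inpp5f* depend on the isoform. The set was put together with the difference between 2i-MEFs and MEFs already known, so the levels in that comparison are given as a description without a test. The values are fragments per kilobase of transcript, scaled to sequencing depth (FPKM), and they do not separate the alleles.

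Fibroblasts from different sources and 2 tissues were compared. The 2i-MEFs were female embryonic fibroblasts of an F1 (129X1/SvJ and MSM/Ms) background. They were obtained at E14.5 from chimeric embryos made with ES cells kept in MEK and Gsk3 inhibitors, in which either *Dnmt3a* or *Dnmt3b* had been disrupted with CRISPR/Cas9, and were purified by drug selection. The injected ES cells were clones that carried an integrated EGFP and neomycin resistance transgene, and each chimeric embryo also held host ICR cells, against which G418 selection and sorting of GFP-positive cells were applied. The MEFs were male C57BL6 fibroblasts of the same embryonic day, labelled WT or *Dnmt3a* KO and cultured with DMSO or with GSK126, an inhibitor of the Polycomb methyltransferase EZH2. Heart and liver were from male C57BL6 embryos of E14.5, labelled WT or *Dnmt3a* KO. C57BL6 is the strain in the labels, and the study's methods give the heterozygous mice that were crossed as the B6;129S4-*Dnmt3a* tm1Enl line. Each of the 10 conditions was 1 library, so there is no replicate error. The difference between 2i-MEFs and MEFs cannot be told apart from strain, sex, derivation, selection, or culture with DMSO or GSK126, which only the MEF labels name. It also cannot be told apart from the loss of a DNMT3 enzyme, which both 2i-MEF libraries carry. A library of WT 2i-MEFs was not analysed here. The other 16 samples of the series are methylation assays and were not used here.

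Imprinted genes are transcribed from 1 parental chromosome because a short control region carries DNA methylation from the egg or from the sperm. At most clusters the mark comes from the egg and lies on the promoter of a paternally expressed gene, often a long noncoding RNA that silences maternally expressed neighbours on the same chromosome. At *H19*/*Igf2* and *Dlk1*-*Dio3* the mark comes from the sperm. There the methylated paternal chromosome expresses *Igf2* or *Dlk1*, and the unmethylated maternal chromosome expresses the noncoding RNAs *H19* or *Meg3*. Once lost in embryonic stem cells, these marks are generally not put back without passage through the germline. The zinc finger protein ZFP57 keeps them by binding methylated copies of the hexamer TGCCGC.

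Promoter sequences are shown for 6 of the genes on which the results turn, to set promoters that carry an egg mark (*Snrpn*, *Nap1l5*, *Mest*) beside those of *Igf2r*, which is silenced by a noncoding RNA, and of *Dlk1* and its maternally expressed neighbour *Meg3*. Each is a window from 250 bases before to 50 bases after a RefSeq transcription start (GRCm38.p6), printed 5′ to 3′ on the strand of the gene, with TGCCGC or its reverse complement GCGGCA in capitals.
*Snrpn*, chr7:60005150-60005449, minus strand: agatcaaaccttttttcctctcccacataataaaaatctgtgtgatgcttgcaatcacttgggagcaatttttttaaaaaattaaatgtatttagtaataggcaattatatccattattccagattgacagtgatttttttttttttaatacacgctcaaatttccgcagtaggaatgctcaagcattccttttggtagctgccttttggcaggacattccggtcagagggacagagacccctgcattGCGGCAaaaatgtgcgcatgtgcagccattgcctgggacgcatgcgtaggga
*Nap1l5*, chr6:58907077-58907376, minus strand: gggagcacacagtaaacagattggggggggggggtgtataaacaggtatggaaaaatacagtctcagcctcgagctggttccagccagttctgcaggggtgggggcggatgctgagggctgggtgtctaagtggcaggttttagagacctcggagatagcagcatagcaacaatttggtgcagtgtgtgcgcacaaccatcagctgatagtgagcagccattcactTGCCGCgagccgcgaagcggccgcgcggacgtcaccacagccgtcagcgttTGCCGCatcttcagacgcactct
*Mest*, chr6:30737800-30738099, plus strand: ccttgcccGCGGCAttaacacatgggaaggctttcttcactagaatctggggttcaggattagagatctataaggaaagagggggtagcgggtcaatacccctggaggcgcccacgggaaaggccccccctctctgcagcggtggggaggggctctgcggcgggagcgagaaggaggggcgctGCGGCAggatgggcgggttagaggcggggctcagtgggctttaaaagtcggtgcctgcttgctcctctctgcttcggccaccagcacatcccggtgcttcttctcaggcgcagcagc
*Igf2r*, chr17:12769657-12769956, minus strand: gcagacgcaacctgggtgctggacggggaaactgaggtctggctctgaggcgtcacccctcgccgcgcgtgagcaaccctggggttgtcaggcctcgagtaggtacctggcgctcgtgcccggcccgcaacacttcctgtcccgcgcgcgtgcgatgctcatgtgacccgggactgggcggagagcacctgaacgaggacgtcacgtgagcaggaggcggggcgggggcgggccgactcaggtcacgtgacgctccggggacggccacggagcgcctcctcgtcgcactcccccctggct
*Dlk1*, chr12:109452573-109452872, plus strand: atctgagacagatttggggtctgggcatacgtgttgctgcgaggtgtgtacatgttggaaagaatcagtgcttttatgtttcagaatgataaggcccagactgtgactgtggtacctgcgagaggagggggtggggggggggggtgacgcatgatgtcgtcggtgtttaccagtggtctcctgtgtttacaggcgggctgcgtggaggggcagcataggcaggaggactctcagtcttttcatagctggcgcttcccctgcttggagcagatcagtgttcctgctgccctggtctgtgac
*Meg3*, chr12:109540746-109541045, plus strand: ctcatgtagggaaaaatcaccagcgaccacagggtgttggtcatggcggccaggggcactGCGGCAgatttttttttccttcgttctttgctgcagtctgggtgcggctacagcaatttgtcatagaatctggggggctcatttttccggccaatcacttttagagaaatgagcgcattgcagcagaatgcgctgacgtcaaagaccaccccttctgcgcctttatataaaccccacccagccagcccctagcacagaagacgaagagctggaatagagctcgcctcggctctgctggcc

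Some of these genes have further RefSeq starts. The windows shown for *Snrpn*, *Mest* and *Meg3* were chosen because they hold a match, and 3 other windows of *Snrpn*, 1 of *Mest* and 1 of *Meg3* held none. The *Snrpn* window shown held 1 match and 7 CpG sites, and the *Nap1l5* and *Mest* windows shown each held 2 matches and 17 CpG sites. The *Meg3* window shown held 1 match and 13 CpG sites. The windows of *Igf2r*, with 34 CpG sites, and of *Dlk1*, with 9, held none. RefSeq windows were matched for 41 of the 48 genes. Searched on both strands, the hexamer was found in 13 of 62 windows of these genes (21.0%), beside 3813 of 32851 windows of all genes (11.6%). Among genes whose promoter lies at an egg-methylated region it was found in 6 of 15 windows (40.0%), and some windows of 1 gene overlap. Any windows of the 48 genes on chromosome 18, where *Impact* lies, were left out. The count over all genes had no such filter. A match is only an occurrence of these letters.

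**Figure D1:**
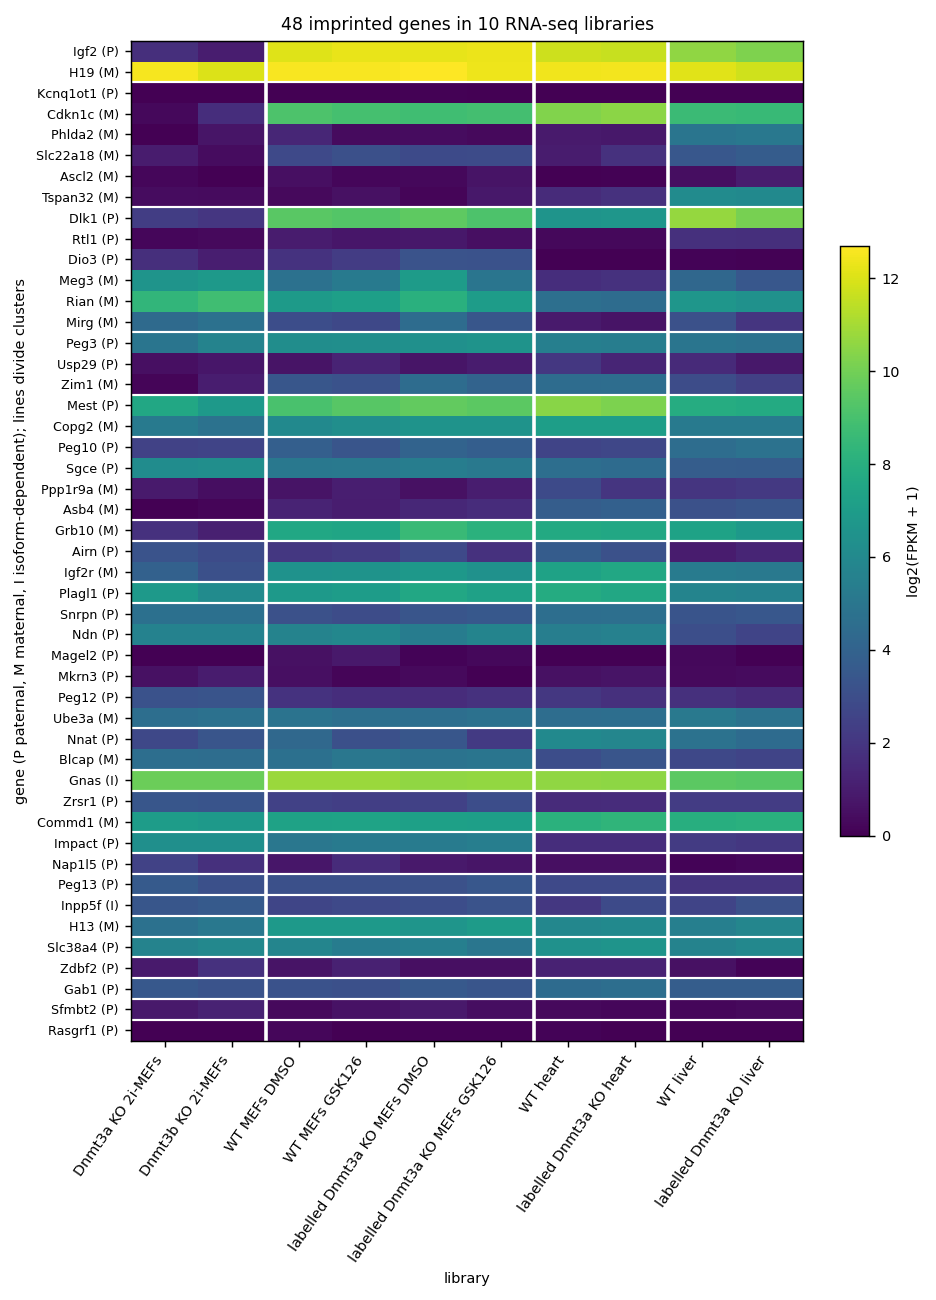
Level of each of the 48 imprinted genes, as log2(FPKM + 1), in each of the 10 libraries. Rows are genes grouped by cluster with the expressed allele in brackets, columns are libraries, and colour runs from 0 (dark) to above 12 (yellow). *Igf2*, *Cdkn1c*, *Dlk1* and *Grb10* are dark in both 2i-MEF columns, whereas *H19* is bright in all 10.

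Between 9171440 and 26224507 mapped reads stood behind each library, estimated from the step size of low FPKM values, and the 2i-MEF libraries were the shallowest, at 10938562 and 9171440 reads. *Dnmt3a* itself was lower in the *Dnmt3a* KO than in the *Dnmt3b* KO 2i-MEFs (4.21 against 23.9 FPKM), and *Dnmt3b* was at 0.817 FPKM in the *Dnmt3b* KO and 1.81 in the *Dnmt3a* KO 2i-MEFs, beside 0.315 to 0.964 in MEFs. In liver, *Dnmt3a* was at 12.7 FPKM in the library labelled KO and 53.5 in WT. In MEFs and heart its level was higher in the libraries labelled KO. It was at 85.7 and 84.5 FPKM in MEFs labelled KO against 26.1 and 19.3 in WT MEFs, and 125 in the heart labelled KO against 55.04 in the WT heart. These are RNA levels over the whole gene, so they do not settle whether the enzyme is lost, and the genotype was not tested. The wording "labelled *Dnmt3a* KO" is therefore used for these libraries. *Xist* was at 27.9 and 32.1 FPKM in the 2i-MEFs and at most 0.1005 elsewhere, as the female and male labels state. All 9 fibroblast markers examined were at 1 FPKM or more in every fibroblast library.

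Of the 48 imprinted genes, 43 were at 1 FPKM or more in at least 1 library, as were 16896 of all 52454 genes. In all 10 libraries 28 of the 48 reached 1 FPKM, a count for which no share of all genes was computed. Nothing is read from these counts, because the 48 were chosen by name. *Ascl2*, *Magel2*, *Mkrn3*, *Kcnq1ot1* and *Rasgrf1* stayed below 1 FPKM throughout. *H19* contributed 35.1% to 39.8% of the summed FPKM of the 48 genes in MEFs, and *Igf2* 28.3% to 33.5%. In the 2i-MEFs this sum was smaller, at 8158 and 6522 FPKM against 15152 to 16780 in MEFs, and *H19* contributed 71.7% and 64.2% of it while *Igf2* contributed 0.028% and 0.016%. The summed FPKM of paternally expressed genes was 0.80 to 1.01 times that of maternally expressed genes in MEFs and 0.59 to 0.71 times in the tissues. It was 0.10 and 0.12 times in the 2i-MEFs. These ratios rest mostly on *Igf2* and *H19*, and without both genes they were 1.16 to 1.28 in MEFs, 0.73 to 1.73 in the tissues, and 0.98 and 0.71 in the 2i-MEFs.

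A gene is called different here when its mean log2(FPKM + 1) differs at least 2-fold and, where a group holds several libraries, the libraries of the groups do not overlap. In 2i-MEFs compared with MEFs, 6 of the 48 genes were higher and 14 were lower by this definition. Of all genes in the table, 1.33% were higher and 1.78% lower, and of the genes with at least 1 FPKM in a compared library 4.65% were higher and 6.22% lower. Nothing is read from this excess, because the set was assembled with this comparison in view. The median difference was -0.31 for the maternally expressed genes and -0.00 for the paternally expressed genes on the log2(FPKM + 1) scale. With a pseudocount of 0.1 in place of 1 the maternal median was -1.10, and 8 of the 48 genes were higher and 17 lower. At that setting 2.80% of all genes were higher and 3.50% lower, and 7.24% and 9.03% of genes with at least 1 FPKM. Over the 41 of the 48 genes with at least 1 FPKM in a compared library the median was -0.23, beside 0.04 for all genes with at least 1 FPKM. Below, values of the 2i-MEFs are given for *Dnmt3a* KO and then *Dnmt3b* KO. Those of MEFs are in the order WT with DMSO, WT with GSK126, labelled KO with DMSO and labelled KO with GSK126.

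**Figure D2:**
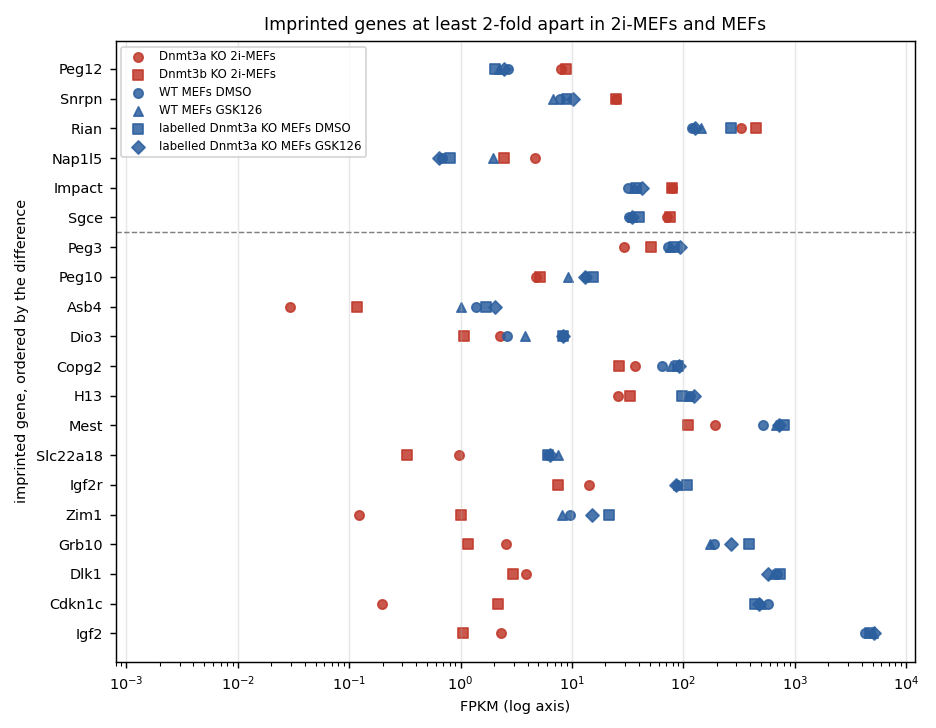
FPKM (log axis) of the 20 imprinted genes called different between 2i-MEFs (red, 2 libraries) and MEFs (blue, 4 libraries), ordered by the size of the difference. Genes above the dashed line are the 6 with higher levels in 2i-MEFs, and genes below it the 14 with lower levels. *Igf2*, *Cdkn1c*, *Dlk1* and *Grb10* at the bottom lie furthest apart.

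The *H19*/*Igf2* locus showed the largest difference of the 48. *Igf2*, the fetal insulin-like growth factor (chr7:142650766-142666816, minus strand), was at 2.301 and 1.043 FPKM in the 2i-MEFs and at 4320, 5017, 4746 and 5158 FPKM in the MEFs. The mean FPKM was 2877-fold lower in the 2i-MEFs, and 4614-fold lower without the *Dnmt3a* KO library. The 2i-MEF values rest on at most 114 and 43 reads. *H19* (chr7:142575529-142578143, minus strand), the noncoding RNA of the maternal chromosome, was abundant in both sources, at 5846 and 4186 FPKM in 2i-MEFs and 6026, 6030, 6654 and 5407 FPKM in MEFs, and these ranges overlap. The ratio of *H19* to *Igf2* was thus 2541 and 4015 in 2i-MEFs, and 1.05 to 1.40 in MEFs. In heart *Igf2* stood at 3379 and 3158 FPKM and in liver at 1548 and 1226, so both 2i-MEF libraries were below all 8 others.

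A similar arrangement was seen in the *Dlk1*-*Dio3* cluster on chromosome 12, where the protein-coding genes are paternally expressed and the long noncoding RNAs are maternally expressed. *Dlk1*, a membrane protein that restrains adipocyte differentiation (chr12:109452823-109463336, plus strand), was at 3.88 and 2.98 FPKM in 2i-MEFs and at 689, 640, 738 and 572 FPKM in MEFs, a 192-fold lower mean. *Dio3*, the deiodinase that inactivates thyroid hormone, was at 2.24 and 1.07 FPKM in 2i-MEFs against 2.64, 3.79, 8.39 and 8.28 in MEFs, a difference of -1.27 that was -0.94 without the *Dnmt3b* KO library. *Rtl1*, a retrotransposon-derived gene needed in the placenta, was low in both, at 0.149 and 0.248 FPKM against 0.453 to 0.975. *Dlk1* and *Dio3* were thus lower in 2i-MEFs by the definition used here. *Rtl1* was not called, with a difference of -0.52 on the log2(FPKM + 1) scale and of -1.46 with a pseudocount of 0.1.

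Of the 3 noncoding RNAs of the same cluster *Rian* was called, and *Meg3* and *Mirg* were not. *Rian*, which hosts small nucleolar RNAs, was higher in 2i-MEFs, at 326 and 454 FPKM against 120, 143, 267 and 128, a 2.37-fold higher mean. *Meg3* was at 93.7 and 111 FPKM in 2i-MEFs and at 25.6, 36.9, 126 and 29.4 FPKM in MEFs. *Mirg*, a microRNA host transcript, was at 20.04 and 25.5 FPKM against 7.02, 5.67, 21.5 and 9.56. Both overlapped with the MEFs through 1 library, the MEFs labelled KO with DMSO, which had the highest level of all 3 RNAs among the MEFs. Without it, 9 of the 48 genes were higher in 2i-MEFs, *Meg3* (1.72), *Mirg* (1.51) and *Airn* (1.06) being added on the log2(FPKM + 1) scale. The ratio of *Meg3* to *Dlk1* was 24.2 and 37.4 in 2i-MEFs and 0.037 to 0.17 in MEFs. The proportions between the RNAs themselves varied less, with *Rian* at 3.48 and 4.08 times the FPKM of *Meg3* in 2i-MEFs and 2.12 to 4.67 times in MEFs.

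**Figure D3:**
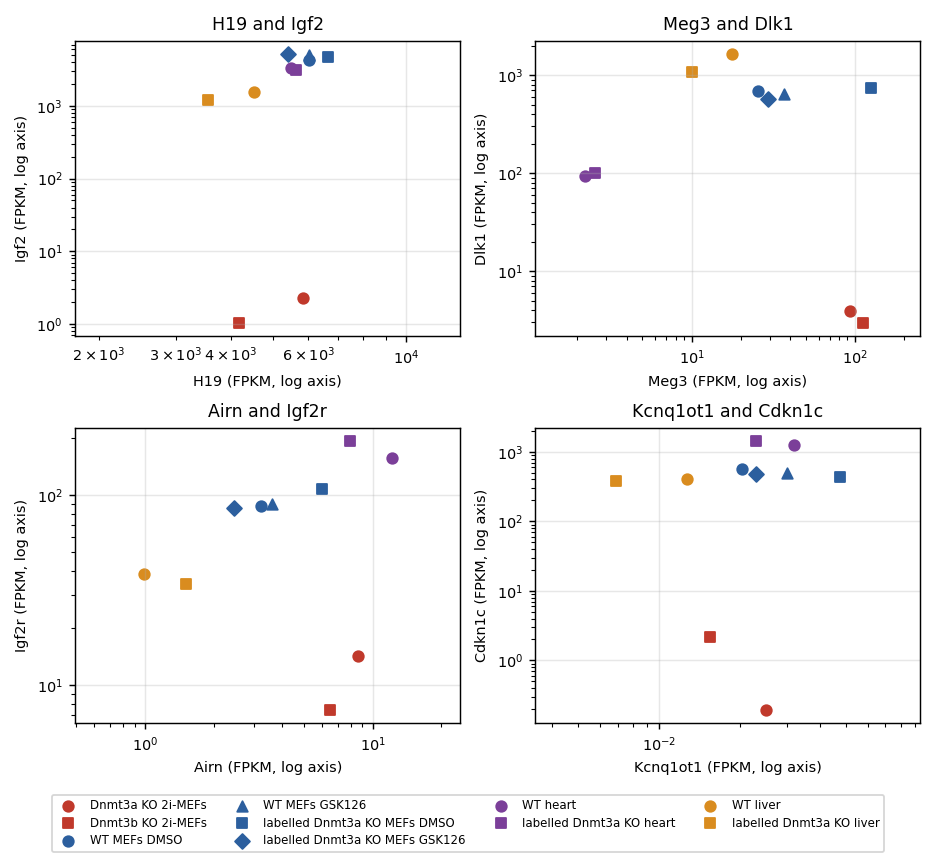
FPKM of noncoding RNAs (x axis, log) against a protein-coding gene of the same cluster (y axis, log) in the 10 libraries. 2i-MEFs are red, MEFs blue, hearts purple and livers orange. *Igf2*, *Dlk1*, *Igf2r* and *Cdkn1c* are lowest in both 2i-MEF libraries, while *H19*, *Meg3* and *Airn* are within or near the range of the other libraries and *Kcnq1ot1* stays below 0.05 FPKM.

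At the clusters with an egg mark, 8 of 15 maternally expressed genes (53.3%) were lower in 2i-MEFs by the definition above, 7 were not called and none was higher, where 1.78% of all genes and 6.22% of genes with at least 1 FPKM were lower. Without a limit on size, 11 of the 15 were lower with no overlap between the libraries, beside 7.56% of all genes and 21.0% of genes with at least 1 FPKM, and the median difference was -1.22. The group was formed with these results known, so the count is a description. In the *Kcnq1ot1* domain on chromosome 7, *Cdkn1c* (chr7:143458339-143461050, minus strand), an inhibitor of cyclin-dependent kinases, was at 0.196 and 2.18 FPKM in 2i-MEFs and at 574, 500, 440 and 482 FPKM in MEFs. The lower of these 2i-MEF values corresponds to 1 to 4 reads. *Slc22a18*, an organic cation transporter, was at 0.972 and 0.329 FPKM in 2i-MEFs against 6.06, 7.505, 6.13 and 6.42 in MEFs. *Phlda2*, *Ascl2* and *Tspan32*, known mainly for their roles in placenta and blood cells, did not exceed 1.59 FPKM in any fibroblast library. The noncoding RNA of the domain, *Kcnq1ot1*, was between 0.007 and 0.047 FPKM in all 10 libraries. It is annotated as a single transcript of 93092 bases, and FPKM values are already divided by this length.

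On chromosome 17 the growth factor scavenger receptor *Igf2r* (chr17:12682406-12769664, minus strand) is silenced on the paternal chromosome by the antisense RNA *Airn* (chr17:12741311-12860122, plus strand). *Igf2r* was at 14.2 and 7.45 FPKM in 2i-MEFs and at 87.7, 90.4, 108 and 85.6 FPKM in MEFs, an 8.57-fold lower mean. *Airn* was at 8.57 and 6.46 FPKM in 2i-MEFs and at 3.21, 3.59, 5.95 and 2.45 in MEFs, above every MEF library but with a difference of 0.86 on the log2(FPKM + 1) scale, less than 2-fold, and of 1.02 with a pseudocount of 0.1. The ratio of *Airn* to *Igf2r* was 0.60 and 0.87 in 2i-MEFs, and 0.026 to 0.077 in the other 8 libraries. These genes overlap on opposite strands. The libraries were stranded, but whether the quantification used the strand is not given in the sources used here, so reads of the overlap may have been shared.

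*Grb10*, an adaptor that restrains insulin and IGF signalling (chr11:11930508-12038683, minus strand), was at 2.56 and 1.17 FPKM in 2i-MEFs and at 188, 175, 390 and 271 FPKM in MEFs, a 137-fold lower mean that was 218-fold lower without the *Dnmt3a* KO library. *Zim1*, the maternally expressed zinc finger neighbour of *Peg3*, was at 0.123 and 1.004 FPKM in 2i-MEFs against 9.67, 8.21, 21.6 and 15.2 in MEFs. *Asb4*, a subunit of ubiquitin ligases in the *Peg10*-*Sgce* cluster, was at 0.030 and 0.117 FPKM against 1.39, 1.004, 1.70 and 2.04. For each of these genes the 2i-MEF libraries were below all 8 others.

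The maternally expressed *H13*, which encodes signal peptide peptidase, was at 25.99 and 33.0 FPKM in 2i-MEFs and at 115, 111, 98.3 and 124 FPKM in MEFs. *Copg2*, a coatomer subunit convergent with *Mest*, was at 36.8 and 26.3 FPKM against 64.9, 76.9, 90.4 and 91.8. The remaining genes of the group, *Ube3a*, *Blcap*, *Commd1*, *Ppp1r9a* and the 3 low genes of the *Kcnq1ot1* domain, differed by at most 0.33 on the log2(FPKM + 1) scale. *Ascl2*, which is below 1 FPKM throughout, was called lower with a pseudocount of 0.1 (-1.42). Imprinting of *Ube3a* is largely a property of neurons, and this ubiquitin ligase gene was at 23.0 and 25.4 FPKM in 2i-MEFs and 23.2 to 27.1 FPKM in MEFs.

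**Figure D4:**
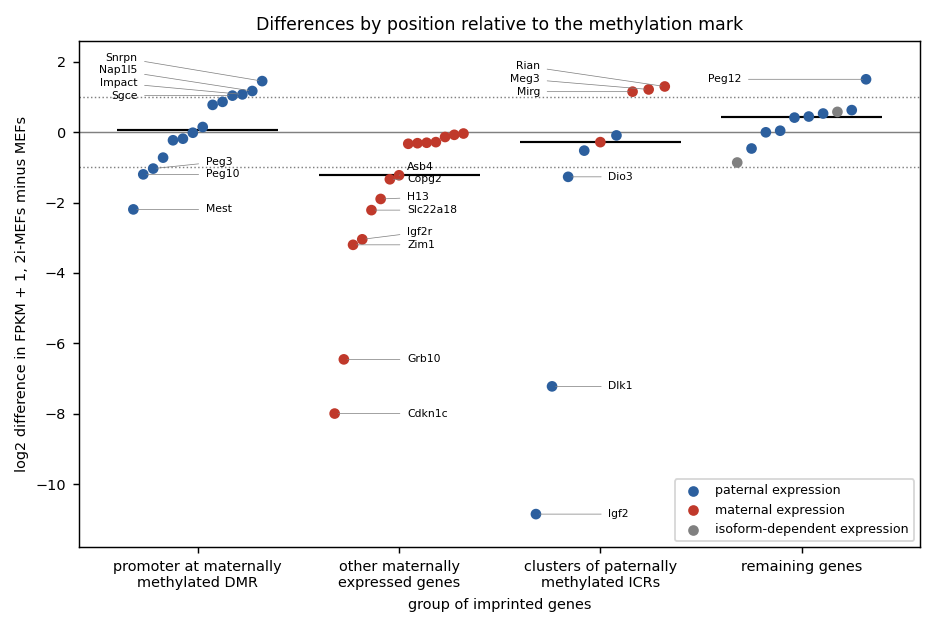
Difference between 2i-MEFs and MEFs in mean log2(FPKM + 1) for each of the 48 genes (points, coloured by expressed allele), by where the gene stands relative to the methylation mark (DMR, differentially methylated region, and ICR, imprinting control region). Black bars are medians, dotted lines mark 2-fold, and genes at least 2-fold apart are named. All 15 maternally expressed genes of egg-marked clusters lie below 0, while genes with a promoter at the mark lie on both sides.

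Among the 14 paternally expressed genes whose own promoter lies at an egg-methylated region, those called went both ways. In this group 4 genes were higher, 3 lower and 7 not called in 2i-MEFs, with a median difference of 0.07. Of all genes 1.33% were higher and 1.78% lower, and of genes with at least 1 FPKM 4.65% and 6.22%. The group was formed with these results known, so the counts are a description. *Snrpn*, which encodes a small nuclear ribonucleoprotein (chr7:59982495-60140219, minus strand), was at 24.7 FPKM in both 2i-MEF libraries and at 7.79, 6.76, 9.11 and 10.3 FPKM in MEFs, a 2.91-fold higher mean. *Impact*, a regulator of the translation factor kinase GCN2, was at 78.4 and 79.4 FPKM against 31.95, 36.4, 37.3 and 42.9. *Sgce*, which encodes epsilon-sarcoglycan, was at 72.0 and 75.8 FPKM against 32.6, 34.7, 40.3 and 34.4. The close agreement of the 2i-MEF libraries contrasts with *Nap1l5*, a nucleosome assembly protein gene, at 4.68 and 2.44 FPKM against 0.688, 1.95, 0.805 and 0.646, a difference of 1.17 that was 0.81 without the *Dnmt3a* KO library. For these 4 genes the mean FPKM was 2.08-fold to 3.48-fold higher in 2i-MEFs.

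The lower genes of this group were *Mest*, *Peg10* and *Peg3*. *Mest*, a hydrolase-like protein of mesoderm, was at 193 and 111 FPKM in 2i-MEFs and at 524, 679, 798 and 724 FPKM in MEFs, a 4.48-fold lower mean. *Peg10*, a retrotransposon-derived gene required in placenta, was at 4.73 and 5.12 FPKM against 13.4, 9.19, 15.6 and 13.04. *Peg10* and *Sgce* share a promoter region and yet lay in opposite directions, so that the ratio of *Sgce* to *Peg10* was 15.2 and 14.8 in 2i-MEFs and 2.44 to 3.78 in MEFs. *Peg3*, a zinc finger protein gene, was at 29.6 and 51.0 FPKM against 72.8, 76.0, 82.8 and 92.6, a difference of -1.03 that is less than 2-fold without the *Dnmt3a* KO 2i-MEFs (-0.65), without the MEFs labelled KO with GSK126 (-0.97), or with only the DMSO-treated MEFs (-0.98). The other 7 genes, *Kcnq1ot1*, *Usp29*, *Airn*, *Plagl1*, *Nnat*, *Zrsr1* and *Peg13*, differed by less than 2-fold.

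Of the 10 genes outside these groups, *Peg12* alone was called different. *Peg12*, an intronless gene near *Ndn* (chr7:62461871-62464510, minus strand), was at 8.06 and 8.94 FPKM in 2i-MEFs and at 2.69, 2.2015, 2.05 and 2.48 FPKM in MEFs, a 3.61-fold higher mean. Its neighbour *Ndn*, a growth suppressor, was at 48.9 and 49.4 FPKM against 49.9, 57.7, 39.8 and 51.2, which overlap. *Magel2*, another gene of that cluster, was listed at 0 in both 2i-MEF libraries and was at 0.097 to 0.851 FPKM in MEFs, and it was called lower with a pseudocount of 0.1 (-2.09). *Gnas*, the stimulatory G protein gene with oppositely imprinted isoforms, was at 918 and 910 FPKM against 1746, 1749, 1551 and 1605, a difference of -0.86. *Sfmbt2*, *Slc38a4* and *Gab1*, genes imprinted in extraembryonic tissue through histone methylation, differed by at most 0.45. The rest of the 10 genes outside the groups above, *Mkrn3*, *Zdbf2* and *Inpp5f*, differed by 0.53 to 0.63 and were not called. *Mkrn3* was called higher with a pseudocount of 0.1 (1.61), and *Zdbf2* without the *Dnmt3a* KO 2i-MEFs (1.09). Among the genes with a sperm mark, *Rasgrf1*, imprinted in brain, was listed at 0 in both 2i-MEF libraries and at no more than 0.171 FPKM elsewhere.

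Both 2i-MEF libraries were below all 8 other libraries for 12 genes, namely *Igf2*, *Cdkn1c*, *Slc22a18*, *Dlk1*, *Zim1*, *Mest*, *Asb4*, *Grb10*, *Igf2r*, *Magel2*, *Commd1* and *H13*, as they were for 2.80% of all genes and 7.83% of genes with at least 1 FPKM in a library. They were above all 8 for *Rian*, *Sgce*, *Snrpn*, *Peg12*, *Zrsr1*, *Impact*, *Nap1l5* and *Inpp5f*, as for 4.23% of all genes and 11.0% of genes with at least 1 FPKM. Nothing is read from these counts, since the comparison with MEFs is part of them. Summed FPKM of 9 skeletal muscle markers was 18.4 and 25.95 in 2i-MEFs and 29.4 to 65.9 in MEFs, and that of 9 fibroblast markers was 20932 and 19502 against 11427 to 17480. *Col3a1*, *Pdgfrb* and *Lum* of the fibroblast list were higher in 2i-MEFs by the definition used here, and its other 6 genes were not called. *Vim* of that list was lower without overlap but by less than 2-fold, at 3148 and 2693 FPKM against 4939 to 5598. No gene of the muscle list was called. The part of cell composition in the imprinted gene levels was not tested, and fewer expressing cells cannot be told apart from less RNA per cell.

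The *Dnmt3a* KO and *Dnmt3b* KO 2i-MEFs were then compared with each other. Only *Cdkn1c* differed at least 2-fold, lower by 1.41 on the log2(FPKM + 1) scale in the *Dnmt3a* KO library, where the values of 0.196 and 2.18 FPKM correspond to 1 to 4 and 6 to 34 reads. Of all genes 2.34% differed at least 2-fold between these libraries, and of genes with at least 1 FPKM 9.01%, beside 1 of 48 here. With a pseudocount of 0.1 the count was 8 of 48, beside 8.83% of all genes and 14.3% of genes with at least 1 FPKM at that setting. With 1 library each, a difference between the lines cannot be told apart from a difference between the enzymes removed.

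In DMSO-treated MEFs, 6 of the 48 genes (12.5%) were higher in the library labelled *Dnmt3a* KO than in WT and none was lower, beside 1.63% of all genes and 6.26% of genes with at least 1 FPKM that differed in either direction. Among these were the maternally expressed RNAs of chromosome 12. *Meg3* was at 126 FPKM against 25.6 in WT, a log2(FPKM + 1) difference of 2.25, the largest of the 48. *Rian* was at 267 against 120 FPKM (1.148) and *Mirg* at 21.5 against 7.02 (1.49). The paternally expressed *Dio3* of the same cluster was also higher, at 8.39 against 2.64 FPKM (1.37), whereas *Dlk1* was at 738 against 689. *Zim1* was at 21.6 against 9.67 FPKM (1.08), and *Grb10* at 390 against 188 (1.05).

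Among GSK126-treated MEFs none of the 48 genes differed at least 2-fold between the genotype labels, beside 1.51% of all genes and 5.83% of genes with at least 1 FPKM. With a pseudocount of 0.1, which weighs low values more, 6 did, beside 7.13% of all genes and 10.5% of genes with at least 1 FPKM. *Meg3* was at 29.4 FPKM in the library labelled KO and 36.9 in WT. *Dio3*, *Zim1* and *Grb10* stood in the library labelled KO and in WT at 8.28 against 3.79, 15.2 against 8.21 and 271 against 175 FPKM, below the 2-fold limit on the log2(FPKM + 1) scale. Whether the difference between the labels itself depends on GSK126 could not be tested with 1 library per condition. Muscle marker FPKM summed to 65.9 in the library labelled KO with DMSO and to 29.4 in WT with DMSO, with *Tnnt3*, *Mylpf* and *Acta1* of the 9 genes higher and *Tnni2* lower at least 2-fold, and the part of this in the imprinted gene values was not tested.

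**Figure D5:**
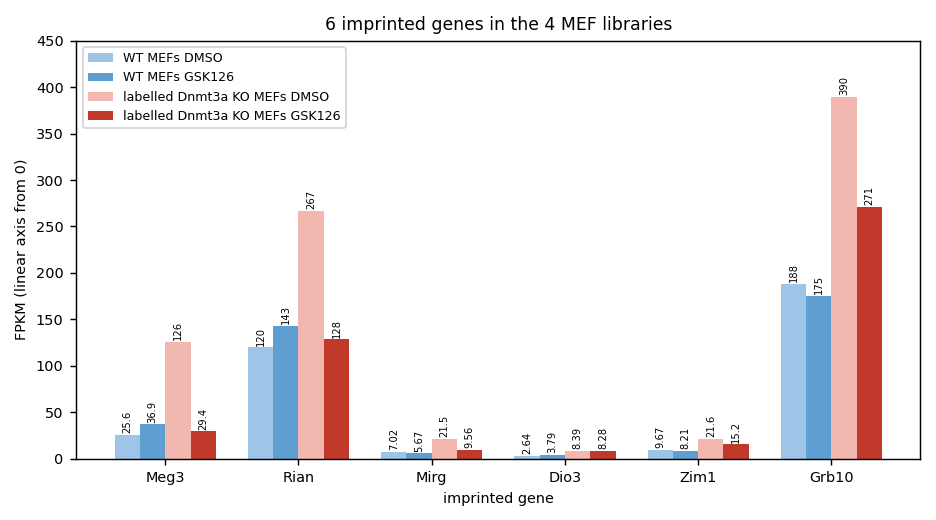
FPKM (linear axis from 0) of the 6 imprinted genes that were at least 2-fold higher in DMSO-treated MEFs labelled *Dnmt3a* KO than in WT, in each of the 4 MEF libraries (bars, 1 library each). *Meg3*, *Rian* and *Mirg* are high in the DMSO library labelled KO only, while *Dio3* is at about 8 FPKM in both libraries labelled KO.

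GSK126 was compared with DMSO within each genotype label, using the same 4 libraries. In WT MEFs only *Nnat* differed at least 2-fold, at 7.46 FPKM with GSK126 against 18.5 with DMSO, beside 0.967% of all genes and 3.76% of genes with at least 1 FPKM. With a pseudocount of 0.1, 7 genes did, beside 5.83% and 7.08% respectively. *Nnat*, a small membrane proteolipid gene of brain and endocrine tissue, was also lower with GSK126 in MEFs labelled KO, at 3.54 against 9.68 FPKM, so the direction was the same under both labels. In MEFs labelled KO 5 of the 48 genes (10.4%) were lower with GSK126 and none higher, beside 1.37% of all genes and 5.26% of genes with at least 1 FPKM that differed in either direction. Besides *Nnat* these were *Meg3* (29.4 against 126 FPKM), *Rian* (128 against 267), *Mirg* (9.56 against 21.5) and *Airn* (2.45 against 5.95). At a pseudocount of 0.1, 6 genes were lower and 2 were higher (*Ascl2* and *Tspan32*), beside 6.87% and 9.63% in either direction. This comparison shares the DMSO library labelled KO with the one above. The difference of *Airn*, -1.01, was at the limit and became -0.97 when centred on the median gene. Summed FPKM of 6 proliferation markers was 112 with GSK126 against 192 with DMSO in WT MEFs, and 100 against 165 in MEFs labelled KO, *Ccnb1* being lower at least 2-fold in both. Of the cell type markers *Mylpf* and *Tnnt2* were higher in WT MEFs, and in MEFs labelled KO *Myl2* was higher and *Col3a1* lower. The part of this in the imprinted gene values was not tested.

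Few imprinted genes were at least 2-fold apart between the genotype labels in heart and liver. In heart none of the 48 genes differed at least 2-fold, beside 1.06% of all genes and 4.04% of genes with at least 1 FPKM. With a pseudocount of 0.1, 3 did, beside 6.37% and 8.01% respectively. *Igf2* was at 3379 FPKM in WT and 3158 in the heart labelled KO, *Cdkn1c* at 1242 and 1430, and *Igf2r* at 156 and 193. In liver only *Mirg* was called, at 2.89 FPKM in the library labelled KO against 7.90 in WT, a difference of -1.19, beside 0.932% of all genes and 3.68% of genes with at least 1 FPKM. At a pseudocount of 0.1, 5 genes were at least 2-fold apart, beside 5.44% and 7.13% respectively. *Meg3* and *Rian* were also lower there, by less than 2-fold, at 10.1 against 17.7 and 83.6 against 101 FPKM. In the same liver library 8 of 9 skeletal muscle markers were lower at least 2-fold, their summed FPKM being 115 against 304, with *Myod1* listed at 0. Of the 9 fibroblast markers *Col3a1* (119 against 289 FPKM) and *Thy1* (0.177 against 1.65) were lower as well, the sum being 500.3 against 775. Of the 7 erythroid markers *Hbb-bt* was higher, and their summed FPKM was 84772 against 56500. That of the hepatocyte markers was 11535 against 18739, with none called. Of 8 cardiomyocyte markers *Myh7*, *Tnnt2* and *Actc1* were lower and *Myl2* higher, and the neural marker *Map2* was higher. In the heart labelled KO 4 of 7 hepatocyte markers were lower, with summed FPKM of 8.88 against 37.15 in the WT heart. Neither the source of these marker differences nor their part in the imprinted gene values was tested.

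Heart and liver themselves differed for many imprinted genes. Of the 48 genes 12 were higher in heart and 9 lower (43.8% together), beside 11.2% of all genes and 38.9% of genes with at least 1 FPKM that were called in either direction. Of the 40 imprinted genes with at least 1 FPKM in a heart or liver library, these 21 are 52.5%. Cardiomyocyte markers were all at 1 FPKM or more in both hearts and hepatocyte markers in both livers, as the labels state. *Igf2* was at 3379 and 3158 FPKM in heart against 1548 and 1226 in liver. *Cdkn1c* was at 1242 and 1430 FPKM against 402 and 380, and *Mest* at 1372 and 1152 against 232 and 219. *Igf2r* was at 156 and 193 FPKM in heart against 38.5 and 33.99 in liver, and *Airn* was higher in heart as well, at 12.1 and 7.97 against 0.989 and 1.52, so these neighbours lay in the same direction here. *Ndn* was at 42.4 and 46.2 FPKM in heart against 7.25 and 4.98, and *Plagl1*, a zinc finger regulator of growth, at 222 and 192 against 51.2 and 49.3. The other genes that were higher in heart differed by 1.14 to 1.90 on the log2(FPKM + 1) scale. *Zim1* was at 21.3 and 22.6 FPKM in heart against 6.68 and 4.23 in liver. *Copg2* was at 138 and 140.03 FPKM against 36.1 and 36.9, and *Snrpn* at 23.3 and 24.3 against 8.82 and 10.04. *Nnat* was at 64.97 and 56.4 FPKM against 26.7 and 20.8, and *Gnas* at 1533 and 1512 against 718 and 664.

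The genes lower in heart than in liver were mostly those of the *Dlk1*-*Dio3* and *Kcnq1ot1* clusters. *Dlk1* was at 94.2 and 100 FPKM in heart against 1637 and 1078 in liver, the latter being the highest levels of the series. *Meg3* was at 2.21 and 2.56 FPKM against 17.7 and 10.1, and *Rian* at 24.1 and 21.4 against 101 and 83.6. *Mirg* was at 0.866 and 0.599 FPKM against 7.90 and 2.89, and *Rtl1* at 0.205 and 0.210 against 2.36 and 2.28. *Dlk1* and the noncoding RNAs were thus lower together in heart, whereas in 2i-MEFs their mean levels lay in opposite directions from those in MEFs. *Phlda2* was at 0.902 and 0.738 FPKM in heart and 29.5 and 33.4 in liver, and *Tspan32*, a tetraspanin of blood cells, at 1.98 and 2.55 against 69.5 and 63.2. *Slc22a18* was at 0.978 and 2.54 FPKM in heart against 10.03 and 12.1 in liver, and *Peg10* at 5.02 and 5.45 against 22.4 and 26.8.

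Other imprinted genes were examined as a separate list of 22. In 2i-MEFs compared with MEFs, *Tfpi2* and *Snurf* were higher, *Pon3* was lower and the other 19 were not called, where 1.33% of all genes were higher and 1.78% lower, and 4.65% and 6.22% of genes with at least 1 FPKM. *Tfpi2*, a protease inhibitor gene of the *Peg10*-*Sgce* region, was at 5.62 and 20.9 FPKM in 2i-MEFs and at 0.639, 1.88, 0.179 and 0.446 FPKM in MEFs. *Snurf*, which shares its transcript with *Snrpn* and may share reads with it, was at 98.8 and 139 FPKM against 33.3, 45.3, 56.0 and 44.4. *Pon3*, a lactonase gene, was at 8.05 and 7.09 FPKM against 15.9, 15.7, 20.2 and 24.3. Genes for imprint maintenance were a further list of 11, and none of them was called.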

How the data were processed

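RNA was poly(A)-selected and sequenced from stranded libraries. The authors mapped the reads to the mouse genome mm10 and deposited 1 table of FPKM per gene. Per the labels' processing notes, cutadapt 1.9.1, TopHat2 2.1.0, Bowtie2 2.2.5 and Cufflinks 2.2.1 were among the tools. FPKM are scaled to transcript length and depth, keep no read counts and do not resolve alleles. Rows of the same symbol were summed. Values were compared as log2(FPKM + 1), with pandas 2.3.3 and numpy 2.4.6, and no p-value was computed, because each condition is 1 library and the values it gives carry no replicate error. All 48 genes are accounted for. Full values are given for genes at least 2-fold apart in a comparison and for 4 pairs of neighbouring genes. The genes, their groups and the marker lists were chosen with earlier results of these data known. Depth was estimated from the spacing of low FPKM values of genes with 1 transcript, of which 96.4% to 98.1% lay within 0.1 of a whole read, against 20.0% for evenly spread values. The calling script was tested on simulated data. Coordinates are from the GENCODE M21 annotation of GRCm38, in which 50561 of 52462 matched genes had the start given in the deposited table. Alternatives were a pseudocount of 0.1, centring on the median gene, a filter at 1 FPKM, a 1.5-fold limit, DMSO-treated MEFs only, another treatment of repeated symbols, and leaving out each library.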

Additional observations from a re-analysis of the deposited data

Results flagged for a closer look

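*Mirg*, the microRNA host transcript of the *Dlk1*-*Dio3* cluster, differed at least 2-fold between the genotype labels in opposite directions in different samples. In MEFs with DMSO it was higher in the library labelled *Dnmt3a* KO than in WT, by 1.49 on the log2(FPKM + 1) scale. In liver it was lower in the library labelled *Dnmt3a* KO, by a difference of -1.19. With 1 library per condition, the difference between these effects was not tested.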

How the results depend on the processing

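The heart and liver libraries of each genotype label carry the same number in their titles, which may name an embryo. With heart and liver paired by this number, an alternative chosen after seeing the data, 21 genes were at least 2-fold apart in the same direction in both pairs, and these were the 21 called from the means. With a pseudocount of 0.1 in place of 1, the median difference of maternally expressed genes between 2i-MEFs and MEFs was -1.10, and the numbers of genes at least 2-fold apart were 8 between the 2i-MEF genotypes, 6 between the labels in MEFs with GSK126, 7 and 8 for GSK126 in WT MEFs and in MEFs labelled KO, 3 between the labels in heart and 5 in liver. In MEFs with DMSO, 7 genes were higher and 2 lower in the library labelled KO at that setting. A smaller pseudocount gives more weight to low values. No called gene changed direction under any alternative run. Of the 20 genes called between 2i-MEFs and MEFs, 3 lost the call under at least 1 alternative. These were *Peg3* (-0.65 to -0.98), *Nap1l5* without the *Dnmt3a* KO 2i-MEFs (0.81) and *Dio3* without the *Dnmt3b* KO 2i-MEFs (-0.94). Genes that gained a call when 1 library was left out were *Mirg*, *Plagl1*, *Zdbf2*, *Meg3* and *Airn*. Without the *Dnmt3a* KO or the *Dnmt3b* KO 2i-MEFs the fold of mean FPKM moved by more than 1.5 times for *Cdkn1c*, *Zim1* and *Asb4*, and without the former also for *Igf2*, *Grb10*, *Slc22a18* and *Dio3*. The 21 genes called between heart and liver stayed called without any 1 library. All median shifts over expressed genes were within 0.08 of 0. Values under about 1 FPKM rest on few reads in the 2i-MEFs.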

Other observations

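None of 11 genes that maintain imprints was at least 2-fold apart without overlap between 2i-MEFs and MEFs. *Trim28*, the corepressor that ZFP57 recruits, was at 267 and 280 FPKM in 2i-MEFs and at 240.3 to 257 FPKM in MEFs. *Zfp57* itself was at 12.3 and 16.1 FPKM in 2i-MEFs and at 6.62 to 12.9 FPKM in MEFs, and was lowest in liver, at 2.64 and 1.55. *Dnmt1* and *Uhrf1*, which copy methylation at replication, were highest in liver, at 90.4 and 66.2 FPKM and at 158 and 152 FPKM. *Dppa3* and *Dnmt3l*, genes of germ cells and early embryos, were listed at 0 in both 2i-MEF libraries and did not exceed 1.35 FPKM elsewhere.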
